A study of Mus musculus with 9 samples.

Results

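Heat shock proteins and chaperones are the machinery that folds, holds and refolds the other proteins of a cell. Proteins of the HSP70 family bind exposed stretches of unfolded proteins in cycles of ATP use, with J-domain (HSP40) proteins that deliver the substrate and nucleotide exchange factors that release it. HSP90 proteins complete the folding of kinases and hormone receptors, small heat shock proteins hold proteins that would aggregate, and separate family members serve the endoplasmic reticulum and the mitochondrion. Some of these genes are transcribed at high levels in every cell, whereas others are induced by heat shock factor 1 (HSF1) under stress. Neurons are known for a high level of the constitutive members and a low level of the inducible ones.

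The 10 genes described here were Hspa1a, Hspa1b, Hspa8, Hspa5, Hsp90aa1, Hsp90ab1, Hsph1, Dnajb1, Hspb1 and Hspd1, chosen by symbol among 14351 measured genes. They were chosen with their values in these libraries known, so their differences between genotypes are described without a test. Hypothalamic RNA was sequenced from male, normal chow fed mice that lacked Clic1 in the whole body (Clic1 KO) and from wild-type (WT) littermates, with 1 library per mouse taken as 1 replicate. Clic1 encodes a chloride intracellular channel protein, and the study asked which hypothalamic genes differ when it is deleted. The KO line was on a CD-1 background per the study's methods, whereas the labels give the strain as C57b/6J. The age of these mice was not given in the sources used here. The 9 libraries were KO replicates 2, 4, 6, 8 and 10 and WT replicates 1, 3, 9 and 11.

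Clic1 itself was at 0.733 to 1.93 normalized CPM (counts scaled to library size) in the 5 KO libraries and at 3.58 to 5.52 CPM in the 4 WT libraries, with no overlap. Replicate 10 carries conflicting labels. Its title and treatment label say WT, but its library description carries the K of the KO libraries, and its Clic1 level of 1.43 CPM lay in the range of the other KO libraries. It was placed with the KO mice, and values without it are given beside those that it moves. It stood apart from the other KO libraries, with 35.7% of the 12072 genes of at least 5 CPM more than 1.3-fold above or below their mean. It was also the most deeply sequenced, at an estimated 20.8 M reads, where the other KO libraries had 5.45 to 7.72 M and the WT libraries 7.28 to 10.98 M. All 10 hypothalamic marker genes were measured, and none of 6 adipose marker genes was in the table, although a treatment note in the labels names adipose tissue.

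Hspa1a and Hspa1b encode the stress-inducible HSP70 and are near-identical neighbours. In GRCm38 both lie on chromosome 17, minus strand, Hspa1b (ENSMUSG00000090877) at chr17:34956436-34959238 and Hspa1a (ENSMUSG00000091971) at chr17:34969190-34972156, each as a single exon, 9.952 kb apart. Hspa1a ends 77.81 kb from Clic1 (chr17:35049966-35058749, plus strand). In the annotated transcripts, the coding sequences (1926 bases in Hspa1a and 1929 in Hspa1b) were 99.6% identical over the aligned bases. They differed at 7 positions, A156G, T795G, A921G, A1380G, A1416G, A1629G and G1884A, counted from the first base of the Hspa1a coding sequence with the Hspa1a base first. Each of the 7 fell on the last position of its codon. The stretch from coding base 1327 to 1416 is shown because it holds 2 of these differences, in capitals, within 90 bases (chr17:34970510-34970599 and chr17:34957592-34957681, minus strand).
Hspa1a coding: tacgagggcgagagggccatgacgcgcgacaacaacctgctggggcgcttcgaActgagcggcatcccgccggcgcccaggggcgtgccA
Hspa1b coding: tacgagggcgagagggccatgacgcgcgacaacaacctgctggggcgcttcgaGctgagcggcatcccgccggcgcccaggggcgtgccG

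Reads from much of the pair therefore match both genes, and the read estimates of such genes are divided between them by the quantification. Of all windows of 50 bases, 58.8% of those in the Hspa1a transcript and 62.3% of those in the Hspa1b transcript were found unchanged in the other, and for windows of 150 bases the shares were 38.1% and 40.5%. The longest identical run within the coding sequence was 638 bases. The 3′ untranslated regions, of 810 and 643 bases, shared no window of 50 bases, so that the sequence which tells the copies apart lay mostly there.

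The 250 bases before the start of the 2 genes differed at 3 positions. RefSeq's annotation of GRCm38.p6 places them at chr17:34972157-34972406 for Hspa1a and chr17:34959239-34959488 for Hspa1b, both on the minus strand. They are shown because they carry the control region of the inducible pair, with the differing bases in capitals (C44T, T47C and T249G, counted from the 5′ end with the Hspa1a base first).
Hspa1a promoter: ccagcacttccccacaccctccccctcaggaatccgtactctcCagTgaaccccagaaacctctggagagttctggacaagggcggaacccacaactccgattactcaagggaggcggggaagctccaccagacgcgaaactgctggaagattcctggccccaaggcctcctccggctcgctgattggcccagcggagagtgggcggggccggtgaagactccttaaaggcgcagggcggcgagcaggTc
Hspa1b promoter: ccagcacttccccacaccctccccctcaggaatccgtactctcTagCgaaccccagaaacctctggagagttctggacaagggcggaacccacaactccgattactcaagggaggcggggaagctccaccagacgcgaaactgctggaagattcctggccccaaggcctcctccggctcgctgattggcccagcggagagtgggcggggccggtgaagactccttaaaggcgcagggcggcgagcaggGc

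Heat shock elements, to which HSF1 binds, are built from inverted repeats of GAA. The inverted pair GAANNTTC, searched on both strands, began 104 bases before the start in both genes and was the same in both. It was present in 6.69% of 32851 mouse promoters of the same length, the other orientation TTCNNGAA in 7.17%, and either in 12.8%. Promoter sequences were at hand for 7 of the 10 genes. Either pair was present in at least 1 listed promoter of Hspa1a, Hspa1b, Hsph1, Hspb1 and Hspd1 (5 of 7), with none in the windows of Dnajb1 and Hspa5. For Hspd1 only 1 of the 2 listed promoters held a pair. The 12.8% above counts promoters, whereas the 5 of 7 counts genes.

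The estimate for Hspa1a was higher in every KO library than in any WT library. It was 9.68, 10.1, 9.87, 11.8 and 17.5 CPM in KO replicates 2, 4, 6, 8 and 10, and 4.76, 5.81, 6.21 and 4.58 CPM in WT replicates 1, 3, 9 and 11. Replicate 10 had the highest value, and the other 4 KO libraries lay close together. The means were 11.8 ± 3.31 CPM in KO (SD, n = 5) and 5.34 ± 0.796 CPM in WT mice (SD, n = 4). On the log2(CPM + 0.1) scale the difference, KO minus WT, was 1.10 (standard error 0.19), and 0.95 (standard error 0.15) without replicate 10. Estimated reads behind these values numbered only 33 to 354 per library.

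Hspa1b showed the opposite pattern. Its estimate was 4.36, 3.81, 4.16, 3.83 and 4.75 CPM in the KO libraries, in the same order, and 11.2, 8.16, 10.5 and 8.14 CPM in the WT libraries. Again the groups did not overlap, and here replicate 10 lay close to the other KO libraries. The means were 4.18 ± 0.393 CPM (SD, n = 5) and 9.49 ± 1.57 CPM (SD, n = 4), a log2 difference of -1.15 (standard error 0.15), or -1.20 (standard error 0.16) without replicate 10. With replicate 10 counted as WT, as its title says, the log2 differences were 0.61 for Hspa1a and -1.01 for Hspa1b.

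Added together, the 2 genes gave overlapping groups. The summed CPM was 14.0, 13.9, 14.0, 15.6 and 22.3 in the KO libraries and 15.9, 14.0, 16.7 and 12.7 in the WT libraries. Apart from replicate 10, every KO value lay within the WT range. The mean sum was 15.97 ± 3.59 CPM in KO (SD, n = 5) and 14.8 ± 1.82 CPM in WT mice (SD, n = 4). The log2 difference of the sum, fitted as 1 gene, was 0.09 (standard error 0.15) with all libraries and -0.04 (standard error 0.11) without replicate 10. The differences of the genes taken alone were thus opposite in sign and far larger than that of their sum.

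What separated the genotypes was the division of the sum between the copies. The share assigned to Hspa1a was 68.9%, 72.6%, 70.3%, 75.4% and 78.7% in the KO libraries and 29.9%, 41.6%, 37.2% and 36.0% in the WT libraries. All 5 KO libraries, replicate 10 included, lay above the highest WT share of 41.6%. The mean share was 73.2 ± 3.92% (SD, n = 5) in KO, 71.8 ± 2.84% (SD, n = 4) in KO without replicate 10, and 36.1 ± 4.84% (SD, n = 4) in WT mice. The deposited table holds gene estimates, in which the level of each transcript and the division of shared reads between the copies cannot be told apart.

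**Figure D1:**
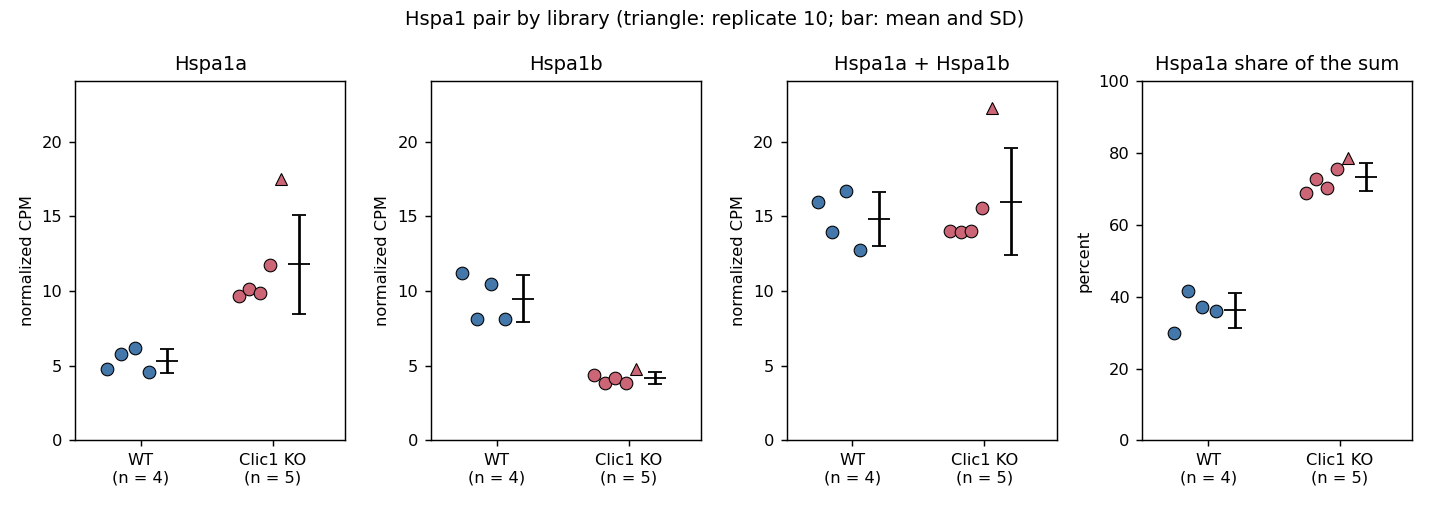
Normalized CPM of Hspa1a, Hspa1b and their sum, and the percent of the sum assigned to Hspa1a, in each WT (blue, n = 4) and Clic1 KO (red, n = 5) library, with KO replicate 10 as a triangle and bars for mean and SD. The groups are apart for each gene and for the share, in opposite directions for the 2 genes, whereas the sums overlap between 12.7 and 16.7 CPM apart from the triangle at 22.3.

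The third gene of the locus, Hspa1l, encodes a related HSP70 that is known from the testis and is read from the plus strand 547 bases from Hspa1a. Its CPM was 3.91, 3.54, 3.54, 3.38 and 1.97 in the KO libraries and 3.60, 4.37, 3.16 and 3.21 in the WT libraries. The groups overlapped, and replicate 10 was the lowest of the 9, the reverse of its place for Hspa1a. The log2 difference was -0.15 (standard error 0.22), and 0.01 without replicate 10. The nearest measured genes on either side, Ehmt2 and Neu1 before the pair and Lsm2 and Vars after it, had log2 differences of 0.21, 0.20, -0.09 and 0.33 (0.12, 0.12, -0.02 and 0.25 without replicate 10), and none passed an adjusted p of 0.05 in limma with Benjamini-Hochberg adjustment over all genes.

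Hspa8 (ENSMUSG00000015656, chr9:40800984-40810087, plus strand), the constitutive HSP70 that also strips clathrin from synaptic vesicles, had the highest CPM of the 10 genes. Its level was 948, 945, 933, 934 and 1490 CPM in the KO libraries and 1014, 1008, 1100 and 952 CPM in the WT libraries. The first 4 KO libraries lay close together, just below the lowest WT library, while replicate 10 lay far above all others. The KO mean was 1050 ± 246 CPM (SD, n = 5), or 940 ± 7.56 CPM (SD, n = 4) without replicate 10, against 1018 ± 61.3 CPM in WT mice (SD, n = 4). The log2 difference was 0.02 (standard error 0.13) and -0.11 (standard error 0.05) without replicate 10. The first value lay well within its standard error, and its sign also turned without WT replicate 11 (-0.01).

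Hsph1 (ENSMUSG00000029657, chr5:149614287-149636376, minus strand), the HSP110 protein that acts as a nucleotide exchange factor for HSP70, followed Hspa8. Its level was 236, 233, 208, 214 and 373 CPM in the KO libraries and 238, 275, 244 and 247 CPM in the WT libraries. Without replicate 10 every KO value was below the lowest WT value, the closest pair being 236 and 238 CPM. The means were 253 ± 68.2 CPM (SD, n = 5) in KO, 223 ± 13.8 CPM (SD, n = 4) without replicate 10, and 251 ± 16.4 CPM in WT mice (SD, n = 4). The log2 difference went from -0.02 (standard error 0.14) to -0.17 (standard error 0.06) when replicate 10 was left out.

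Dnajb1 (ENSMUSG00000005483, chr8:83608193-83612653, plus strand), the J-domain partner of cytosolic HSP70 and itself strongly heat-inducible, was even across all libraries. Its CPM was 40.3, 39.5, 37.0, 43.3 and 41.6 in the KO libraries and 42.0, 39.2, 45.3 and 39.4 in the WT libraries. The groups overlapped almost fully, and replicate 10 lay in the middle. The log2 difference was -0.04 (standard error 0.08), and -0.05 (standard error 0.07) without replicate 10.

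The 2 cytosolic HSP90 genes were among the most abundant transcripts here. Hsp90aa1 (ENSMUSG00000021270, chr12:110690605-110702728, minus strand), the inducible form, was at 749, 777, 753, 747 and 1120 CPM in the KO libraries and at 738, 845, 765 and 817 CPM in the WT libraries. These groups overlapped, with replicate 10 again above every other library. Its log2 difference was 0.05 (standard error 0.11), and -0.06 (standard error 0.05) without replicate 10.

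Hsp90ab1, the constitutive form, was the one gene outside the Hspa1 pair with a clear gap between the genotypes once replicate 10 was set aside. It was at 856, 836, 853, 821 and 1128 CPM in the KO libraries and at 946, 1007, 993 and 1016 CPM in the WT libraries. The first 4 KO libraries all lay below the lowest WT library, by more than their own spread, and replicate 10 lay above the highest. The KO mean was 899 ± 129 CPM (SD, n = 5), or 842 ± 16.4 CPM (SD, n = 4) without replicate 10, against 990 ± 31.0 CPM in WT mice (SD, n = 4). The log2 difference was -0.15 (standard error 0.09) with all libraries and -0.23 (standard error 0.04) without replicate 10. Like the Hspa1 pair, Hsp90ab1 lies on chromosome 17 (ENSMUSG00000023944, chr17:45567775-45573271, minus strand), 10.5 Mb beyond Clic1.

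Hspb1 (ENSMUSG00000004951, chr5:135887919-135889563, plus strand), the small heat shock protein HSP27, varied more between mice than between genotypes. It was at 5.52, 4.61, 2.01, 7.99 and 4.21 CPM in the KO libraries and at 4.16, 5.26, 5.48 and 3.31 CPM in the WT libraries. KO replicates 6 and 8 held the lowest and the highest value of all 9, and the WT range fell between them. The log2 difference was -0.00 (standard error 0.32), and 0.02 (standard error 0.32) without replicate 10. Its spread within groups over the 8 libraries without replicate 10, 0.62 on the log2 scale, was above that of 95.5% of the 2466 genes within 2-fold of its level. Summed markers of meninges and fibroblasts (6 of 6 measured, none at 0 throughout) were 208, 294, 85.7, 363 and 78.1 CPM in the KO and 94.1, 92.3, 199 and 95.3 CPM in the WT libraries. That sum was highest in the same library as Hspb1, KO replicate 8, and its part in the Hspb1 values was not tested.

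Hspa5 and Hspd1 serve the organelles. Hspa5 (BiP; ENSMUSG00000026864, chr2:34771970-34777547, plus strand), the HSP70 of the endoplasmic reticulum whose induction marks the unfolded protein response, was at 252, 303, 262, 279 and 454 CPM in the KO libraries and at 259, 264, 279 and 244 CPM in the WT libraries. Replicate 10 apart, the groups overlapped. The log2 difference of 0.21 (standard error 0.14) fell to 0.07 (standard error 0.06) without that library. Its promoter holds the letters of the endoplasmic reticulum stress element, CCAAT and CCACG with 9 bases between them, present in 0.113% of the promoters searched on both strands and here beginning 65 bases before RefSeq's start, within the first bases of the gene as GENCODE draws it. It is shown because the unfolded protein response acts through this element (30 bases at chr2:34772019-34772048, plus strand, GRCm38.p6, element in capitals).
Hspa5 ERSE: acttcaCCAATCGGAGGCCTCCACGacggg

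Hspd1 (ENSMUSG00000025980, chr1:55077835-55088243, minus strand), the mitochondrial HSP60 chaperonin, was at 122, 125, 118, 122 and 186 CPM in the KO libraries and at 120, 120, 113 and 123 CPM in the WT libraries. Without replicate 10 the KO libraries lay close together, at 122 ± 2.58 CPM (SD, n = 4), against 119 ± 4.17 CPM in WT mice (SD, n = 4). The log2 difference was 0.15 (standard error 0.12), and 0.03 (standard error 0.05) without replicate 10.

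**Figure D2:**
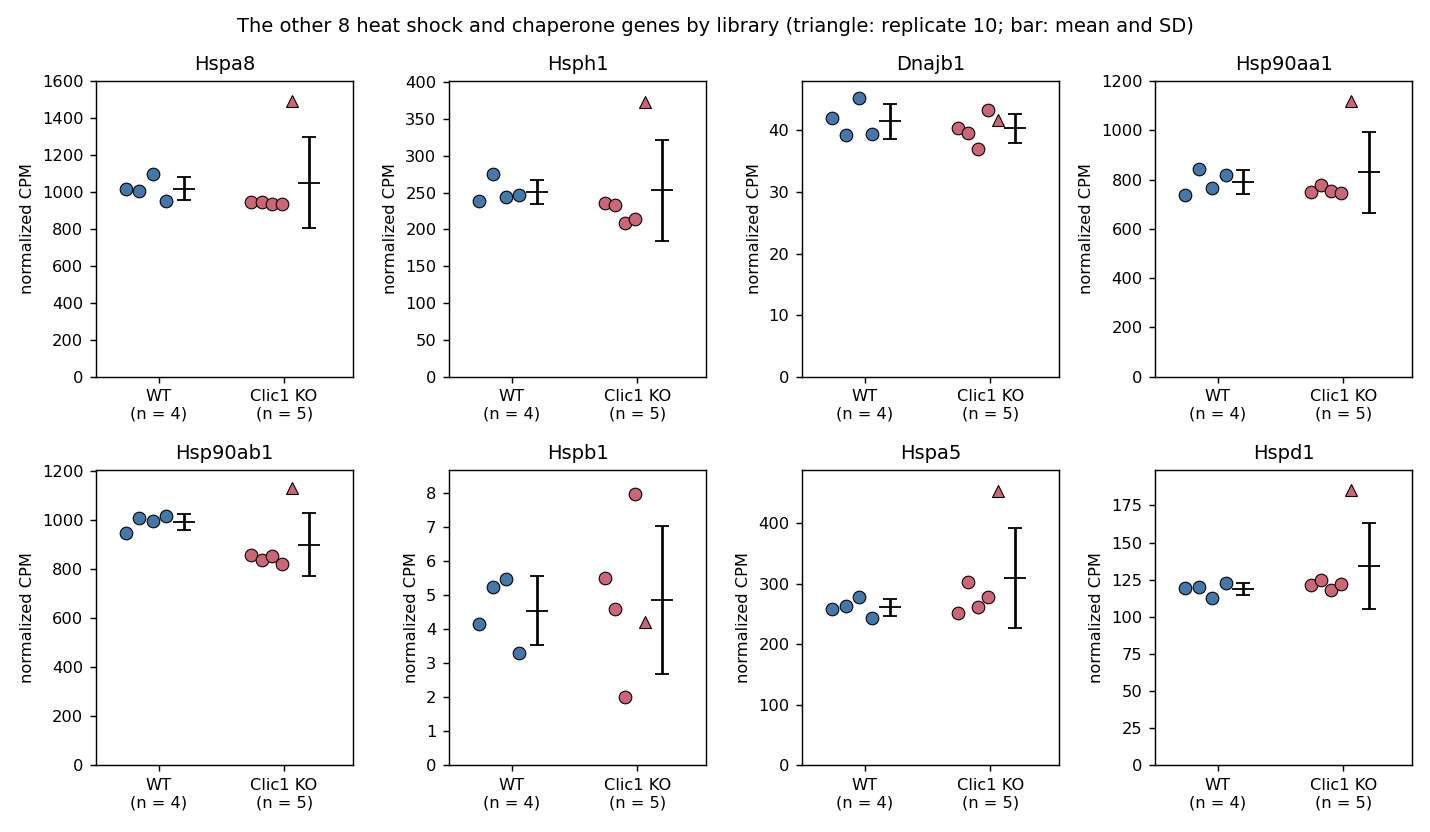
Normalized CPM of the 8 genes outside the Hspa1 pair in each WT (blue, n = 4) and Clic1 KO (red, n = 5) library, with KO replicate 10 as a triangle, bars for mean and SD, and each axis starting at 0. The triangle is the highest point in Hspa8, Hsph1, Hsp90aa1, Hsp90ab1, Hspa5 and Hspd1, and the KO circles lie below all WT circles in Hspa8, Hsph1 and Hsp90ab1.

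In the fit across all genes (limma, Benjamini-Hochberg adjusted p under 0.05), 2 of the 10 genes were past the threshold, Hspa1a and Hspa1b, beside a background of 0.286% of all genes. Without replicate 10 there were 3, Hsp90ab1 being the third, beside 0.606%. These counts rest on the contrast with which the genes were chosen, and nothing is read from them. Likewise, the KO and WT ranges did not overlap for 2 of the 10 genes with all libraries, beside 3.41% of all genes. Without replicate 10 they did not overlap for 5, beside 6.06%. Of these, 4 were lower in KO (Hspa1b, Hspa8, Hsp90ab1 and Hsph1; 3.19% of all genes) and 1 higher (Hspa1a; 2.86% of all genes). Without replicate 10, the CPM of the 10 genes summed to 3182 to 3277 per KO library and 3376 to 3578 per WT library, whereas replicate 10 reached 4819. Most of each sum came from Hspa8, Hsp90aa1 and Hsp90ab1, so it says little about the other genes. Of the 10 log2 differences, 6 were negative without replicate 10. In bulk tissue, fewer cells of a type and less RNA per cell cannot be told apart.

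Per kilobase of exon the 10 genes spanned a wide range. The length was that of all annotated exons of a gene joined, for instance 4.301 kb for Hspa8 and 7.266 kb for Hsph1. It can exceed the length of the transcript expressed, so the order of genes at similar levels depends on the annotation. In WT mice the level was 330 ± 10.3 CPM per kb for Hsp90ab1, 237 ± 14.3 for Hspa8 and 201 ± 12.4 for Hsp90aa1 (SD, n = 4). Then came Hspa5 at 61.8 ± 3.41, Hspd1 at 45.0 ± 1.58, Hsph1 at 34.6 ± 2.26 and Dnajb1 at 12.9 ± 0.892 CPM per kb, none overlapping its neighbour in this order. The lowest were Hspb1 at 4.42 ± 0.982, Hspa1b at 3.39 ± 0.562 and Hspa1a at 1.80 ± 0.268 CPM per kb. On this scale the constitutive Hsp90ab1 and Hspa8 stood at the top, followed by Hsp90aa1, the inducible form. The inducible HSP70 pair stood at the bottom of the 10 genes. The WT ranges of Hspb1 and Hspa1b overlapped, as did those of Hspa1a and Hspa1l. In KO mice Hspa1a (3.97 ± 1.11 CPM per kb; SD, n = 5) stood above Hspa1b (1.49 ± 0.140), the reverse of the WT order, and it did so without replicate 10 too (3.49 ± 0.320 and 1.44 ± 0.0953; SD, n = 4).

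**Figure D3:**
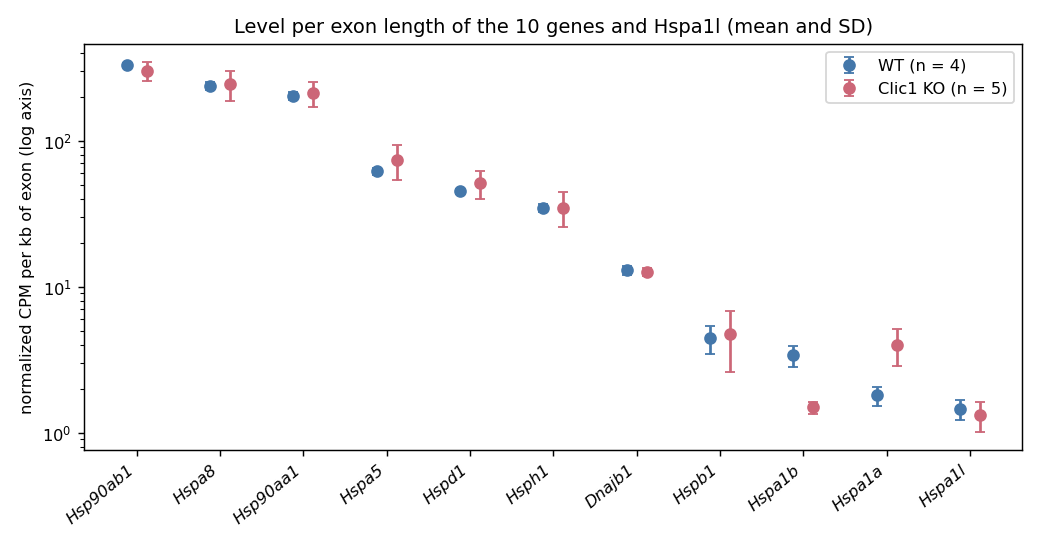
Normalized CPM per kilobase of exon (log axis) of the 10 genes and Hspa1l, as mean and SD of WT (blue, n = 4) and Clic1 KO (red, n = 5) libraries, in the order of the WT means. The levels fall from 330 CPM per kb for Hsp90ab1 to 1.80 for Hspa1a and 1.45 for Hspa1l in WT mice, and the KO and WT means are clearly apart for Hspa1b and Hspa1a, in opposite directions.

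Replicate 10 was the highest of the 9 libraries for 7 of the 10 genes, whereas it was the highest for 30.1% of all genes. Against the mean of the other 4 KO libraries its level was 1.69 times as high for Hspa1a, 1.67 for Hsph1, 1.66 for Hspa5, 1.59 for Hspa8, 1.53 for Hspd1, 1.48 for Hsp90aa1 and 1.34 for Hsp90ab1. For Hspa1b, Dnajb1 and Hspb1 the ratio was 1.18, 1.04 and 0.835. Of genes within 2-fold of the same level, 97.0% deviated less upward in replicate 10 than Hsph1 did, 96.2% less than Hspa5 and 93.5% less than Hspa8, but 54.5% less than Dnajb1. The elevation was therefore shared by cytosolic, endoplasmic reticulum and mitochondrial chaperones. Inducible genes went both ways. Hsp90aa1 and the sum of the Hspa1 pair (1.55 times the mean of the other KO libraries) were raised, whereas Dnajb1 and Hspb1 were not the highest in replicate 10. Within the pair Hspa1a was the highest there and Hspa1b was not, but the division of shared reads enters both values.

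The same held among further chaperone and heat shock genes, 144 measured gene entries in 10 lists. Replicate 10 was the highest of the 9 libraries for 79 of the 144 (54.9%). Its median log2 deviation from the other KO libraries was 0.30 over these genes and 0.00 over all genes. By list the median deviation was 0.61 for chaperonins and prefoldin, 0.51 for HSP90 and its co-chaperones, 0.44 for nucleotide exchange factors, 0.40 for endoplasmic reticulum chaperones and the unfolded protein response, 0.34 for mitochondrial proteostasis and 0.33 for the HSP70 family. It was lower for inducible heat shock targets (0.24) and the HSP40 family (0.16), and below 0 for HSF1 with its regulators (-0.16) and for small heat shock proteins (-0.21). Cct2 and Cct7, subunits of the cytosolic chaperonin that folds actin and tubulin, were at 278 and 264 CPM in replicate 10, where the other 8 libraries reached at most 155 and 158 CPM. Hsp90b1, the HSP90 of the endoplasmic reticulum, was at 644 CPM against at most 390 CPM. Hsf1 itself was the lowest of the 9 in that library, at 36.4 CPM against 43.8 to 56.5 CPM. Its list went both ways, as replicate 10 was the lowest of the 9 for 4 of the 8 measured genes and the highest for 3. Depth and labels of replicate 10 differed from the rest as given above, and their part in these values was not tested.

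**Figure D4:**
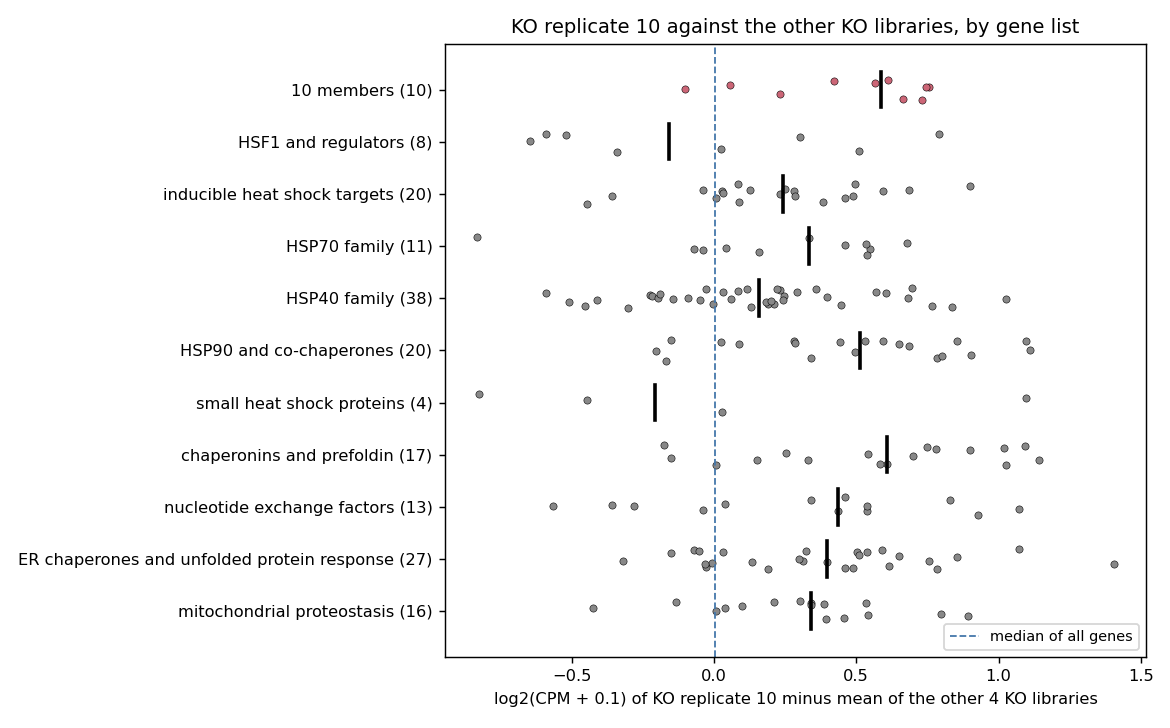
Difference between KO replicate 10 and the mean of the other 4 KO libraries on the log2(CPM + 0.1) scale, with a point per gene, a black bar for the median of each list and the number of gene entries in parentheses, for the 10 genes (red) and 10 lists of related genes (grey). The medians reach 0.61 for chaperonins and prefoldin, while HSF1 with its regulators and the small heat shock proteins lie below the dashed median of all genes.

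Between the genotypes, the same lists showed no gene past the threshold. Of the 144 listed entries, 0 had an adjusted p under 0.05 in limma (background 0.286%), with 6 at an unadjusted p under 0.05 (6.5% of all genes), and their median log2 difference was 0.04 beside 0.00 over all genes. Without replicate 10 the counts were 0 (background 0.606%) and 14 (10.5% of all genes), and the median was -0.01. On the 136 entries outside chromosome 17, which carries Clic1 and the Hspa1 pair, 0 had an adjusted p under 0.05 and 6 an unadjusted p under 0.05, with a median of 0.04, and without replicate 10 the values were 0, 13 and -0.01. The 8 genes of these 10 outside the Hspa1 pair had a median of 0.01, and -0.06 without replicate 10.

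The sign of most list medians changed when replicate 10 was left out. With all libraries and without replicate 10, the median log2 difference was -0.05 and 0.01 for HSF1 and its regulators (8 measured), 0.03 and -0.01 for the inducible heat shock targets (20), 0.04 and -0.00 for the HSP70 family (11), and 0.05 and 0.01 for the HSP40 family (38). It was 0.07 and 0.01 for HSP90 and co-chaperones (20), -0.13 and -0.11 for small heat shock proteins (4 of 9 measured), and 0.09 and -0.08 for chaperonins and prefoldin (17). The last list had 4 of 17 negative differences with that library and 13 of 17 without it. For nucleotide exchange factors (13) the medians were 0.01 and -0.03, for endoplasmic reticulum genes (27) 0.03 and -0.05, and for mitochondrial proteostasis (16) 0.02 and -0.02.

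Among the most abundant genes of these lists, Hsf1, the master regulator of the heat shock response, was at 49.1 ± 8.24 CPM in KO (SD, n = 5), 52.3 ± 4.80 CPM in KO without replicate 10 (SD, n = 4) and 48.6 ± 3.28 CPM in WT mice (SD, n = 4). In the same order, Hspa4, an HSP110-type nucleotide exchange factor, was at 235 ± 37.0, 218 ± 5.37 and 214 ± 14.2 CPM, and the mitochondrial HSP70 Hspa9 at 200 ± 37.2, 183 ± 5.81 and 182 ± 5.15 CPM. Each of these differences was smaller than the SD of the KO libraries, with and without replicate 10. Dnajc5, the synaptic vesicle cysteine-string protein, was at 351 ± 24.1, 361 ± 7.40 and 374 ± 9.26 CPM. The crystallin Cryab, the most abundant small heat shock protein here, was at 43.0 ± 6.98, 45.4 ± 5.03 and 49.6 ± 4.13 CPM. The KO and WT values of both genes overlapped. Calr, a calcium-binding lectin chaperone of glycoproteins, was at 272 ± 58.8, 246 ± 6.14 and 263 ± 19.9 CPM, so that its KO mean lay above the WT mean only with replicate 10.

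Immediate early genes, which rise within minutes of stimulation or handling, were measured beside the stress genes. All 10 of 10 had a negative log2 difference (median -0.34), as had 7122 of 14351 genes in all. None passed the threshold in limma, and 4 had an unadjusted p under 0.05, beside 6.5% of all genes. Without replicate 10 all 10 were negative (median -0.26) and 3 had an unadjusted p under 0.05, beside 10.5%. Their summed CPM was 150, 182, 115, 142 and 114 in the KO and 197, 172, 180 and 179 in the WT libraries, so that 4 of the 5 KO libraries lay below every WT library. Dnajb1, Hspb1, Hsp90aa1, Hspa5, Hspd1 and the Hspa1 sum did not show that order. For Hspa8, Hsph1 and Hsp90ab1, too, 4 of the 5 KO libraries lay below every WT library. The exception was replicate 10 for those genes and replicate 4 for the immediate early genes. Summed markers of endothelium ranged from 199 to 225 CPM in KO libraries and from 184 to 201 CPM in WT (7 of 7 measured), and those of hypothalamic neuropeptides and regulators 613 to 799 and 537 to 586 CPM (10 of 10). In the latter set Avp, the vasopressin gene, alone passed the threshold, at 207 ± 27.4 CPM in KO (SD, n = 5) and 111 ± 13.6 CPM in WT mice (SD, n = 4), and 4 of the 10 differences were negative (median 0.05, and 0.12 without replicate 10). The part of these sets in the values of the 10 genes was not tested.

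For each gene, the genes whose deviations from their group means were most like its own over the 9 libraries were sought among 12063 genes of at least 5 CPM. These correlations are descriptions over 9 libraries that share replicate 10. The genes were picked as the highest of so many over so few libraries that a high r follows partly from the choice. For the Hspa1 sum the closest were Pms1 (r = 0.985), Pomp (0.982) and Fbxo38 (0.978). They were Tasp1, Vps28 and Psmc3 for Hspa8 (r = 0.997 to 0.996), Copb2, Vps50 and Zfp622 for Hspa5 (0.992 to 0.989), and Phactr3, Hars and Gnai1 for Hsph1 (0.992 to 0.985). For Hsp90aa1 they were Pls3, the chaperone Hsp90b1 and Vps41 (r = 0.993 to 0.992), for Hsp90ab1 Rabep1, Add1 and Phf20 (0.995 to 0.989), and for Hspd1 Ckap5, Snrpn and Smarca1 (0.994 to 0.993). Over the 8 libraries without replicate 10, r was 0.949 for Pms1, 0.967 for Tasp1, 0.938 for Copb2 and 0.916 for Phactr3. It was 0.925 for Pls3, 0.918 for Rabep1 and 0.826 for Ckap5, and fell as low as 0.773 among the others named (Smarca1 with Hspd1). The 8 libraries are part of the 9 used for the choice, so these values are no independent check. Dnajb1 and Hspb1 had other partners, C1qa, Itm2a and Lamb2 for Dnajb1 (r = 0.974 to 0.945) and A2m and Ctso for Hspb1 (0.972 and 0.955). For C1qa with Dnajb1 and A2m with Hspb1, r was 0.973 and 0.973 without replicate 10.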

How the data were processed

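Hypothalamic RNA libraries of 5 Clic1 KO and 4 WT mice were analysed. Per the labels and the study's methods, the authors trimmed reads (Trimmomatic 0.38), aligned them to GRCm38.p6 (STAR 2.5.1a), estimated gene counts (RSEM 1.3.0, which divides reads shared by several genes), removed genes of low CPM and scaled the libraries with edgeR's TMM. The deposited signal is this normalized CPM for 14351 genes, and column sums (0.988 to 1.03 times 1e6) differ through that scaling. Of the values up to 2.5 CPM, 81.3% to 86.6% were whole reads within 0.03, so that depths are approximate. The deposited fold changes, scores and p-values of the authors' own comparison were not used. Left out was 1 library column without a matching sample.

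Values were fitted as log2(CPM + 0.1) with limma 3.58.1 in R 4.3.3 (trend, condition only, Benjamini-Hochberg over all genes, threshold 0.05), which was checked on simulated data. This scale understates changes of low genes. P-values measure only the spread between these samples. Transcripts came from GENCODE mouse release 21 and promoters from RefSeq, both on GRCm38. The genes and gene lists were chosen with earlier results of these data known. Named were the 10 genes, Clic1, the Hspa1 locus and its neighbours, up to 4 genes of largest mean CPM per list, genes past the threshold and the 3 closest by correlation, of which some are not reported here. Alternatives were other pseudocounts, a filter at 5 CPM, other scalings and variance models, sample weights, replicate 10 as WT and leaving out each replicate.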

Additional observations from a re-analysis of the deposited data

Results flagged for a closer look

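In 9 of 26 groups of values tested, 1 library lay far outside the rest, where chance would give about 1.3, and in all 9 it was KO replicate 10. It was high in 8 of them. Its level was 17.5 CPM for Hspa1a, 22.3 CPM for the sum of Hspa1a and Hspa1b, 1490 CPM for Hspa8, 373 CPM for Hsph1, 1120 CPM for Hsp90aa1, 1128 CPM for Hsp90ab1, 454 CPM for Hspa5 and 186 CPM for Hspd1. For Hspa1l it was low, at 1.97 CPM. The genes share a library, so that these flags are not independent of each other. Replicate 10 also stood apart across all genes, being the highest of the 9 libraries for 30.1% of them and the lowest for 28.3%. The value of about 1.3 takes no account of this, so nothing particular to these genes is read from the 9. The share of all genes for which replicate 10 lay as far outside the rest is not given here.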

How the results depend on the processing

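The 41 genes past the threshold became 27 with the filter at 5 CPM, 135 with sample weights and 5 with replicate 10 as WT, and 18 to 87 as each library was left out (87 without KO replicate 10; 18, 19, 24 and 22 without WT replicates 1, 3, 9 and 11; 27 and 25 without KO replicates 6 and 8). With replicate 10 as WT, log2 differences moved to 0.61 for Hspa1a, -0.22 for Hspa8, -0.094 for Hspa5, -0.16 for Hsp90aa1 and -0.10 for Hspd1, and the difference in the Hspa1a share to 27.2 percentage points from 37.0 (34.9 to 38.9 as each library was left out). The cause was not tested. Of 230 values recomputed, 214 stayed within the limits set for a change. Those limits let small differences change sign, as for Hspa8 (0.02, and -0.11 without replicate 10). The 214 also include counts of 0 that stayed at 0, so the number does not measure whether directions were kept. Over all alternatives the log2 difference kept its sign for Hspa1a (0.61 to 1.18), Hspa1b (-1.24 to -1.01) and Hsp90ab1 (-0.27 to -0.12). It took the opposite sign in 3 of 17 alternatives for the Hspa1 sum, 4 for Hspa8, 3 for Hsp90aa1, 3 for Hsph1 and in 8 of 16 for Hspb1, and in 1 of 17 each for Hspa5, Dnajb1 and Hspd1. The count of listed genes past the threshold was 0 in each alternative. Hspb1, below 5 CPM, gave no value under the filter. No paired analysis was possible because KO and WT libraries share no replicate number. Few reads limit Hspa1a, Hspa1b and Hspb1, with 33, 23 and 11 estimated reads in their lowest libraries.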

Other observations

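Some of the listed chaperone genes that missed the threshold still had separate ranges in KO and WT mice. They are named after their values were seen. There were 5 such genes of 144, about the same share as the 3.41% of all genes, so nothing particular to chaperones is read from them. Hspe1, the lid of the HSP60 chaperonin that Hspd1 forms, was at 24.6 ± 0.547 CPM in KO (SD, n = 5) and 31.2 ± 6.55 CPM in WT mice (SD, n = 4). Atf4, the transcription factor of the integrated stress response, was at 55.8 ± 3.32 and 47.6 ± 2.41 CPM, a log2 difference of 0.23 (standard error 0.07, adjusted p = 0.506 in limma). Ppib, a prolyl isomerase of the endoplasmic reticulum, was at 77.1 ± 2.83 and 72.1 ± 1.55 CPM. Ero1lb, an oxidase of the same compartment, was at 29.5 ± 0.469 and 32.2 ± 1.602 CPM, and the mitochondrial J-domain protein Dnajc15 at 89.96 ± 2.10 and 98.6 ± 5.72 CPM. Hspe1, unlike Hspd1, was not raised in replicate 10, at 24.7 CPM.

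Other cell type marker sets had overlapping sums in the genotypes. The sums in CPM were 1531 to 2033 in KO and 1555 to 1794 in WT libraries for astrocytes (5 of 5 measured), 3343 to 3842 and 3623 to 4434 for oligodendrocytes (5 of 5), 179 to 210 and 193 to 248 for microglia (5 of 5), 42.5 to 52.3 and 42.5 to 44.4 for ependyma (5 of 5), 35.3 to 45.8 and 29.1 to 42.4 for choroid plexus (2 of 6) and 9.79 to 13.4 and 7.58 to 10.3 for blood (1 of 5).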
